A study of Rattus norvegicus with 18 samples.

Results

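The retinal transcriptome of old rats given oral 8-aminoguanine (8-AG) was compared with that of untreated old rats in 6 bulk RNA-seq libraries of neural retina, 3 from 8-AG-treated and 3 from untreated rats of 24 months, out of 18 libraries of retina and RPE/choroid in the study. All genes of the retina count table entered the comparison: 14631 of its 32285 genes passed the expression filter and were tested. The rats were wild-type female Fischer 344 rats, an inbred strain used for ageing studies. Treated rats received 8-AG in their drinking water at 5 mg/kg of body weight each day for 8 weeks, from 22 to 24 months of age. Untreated rats of the same age drank plain water, and young rats were 4 months old. The cornea, iris and lens were removed before the neural retina was lifted off, and the RPE/choroid was washed from the remaining eye cup. The labels describe the 3 retina libraries of a group as separate samples without saying whether they are separate animals, so p-values measure only the spread between these samples. RNA is labelled as total RNA in the 3 libraries of 8-AG-treated retina and as polyA RNA in the other 15 libraries, whereas the protocol gives poly-A capture for all of them, and so this difference in labels and the treatment cannot be told apart.

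8-AG is a purine that inhibits purine nucleoside phosphorylase, the enzyme that splits inosine and guanosine into a free base and a sugar phosphate. The retina holds rods and cones, which detect light, the bipolar, horizontal, amacrine and ganglion cells that carry the signal on, Müller glia, and resident microglia. With age the retina loses photoreceptors and its glial and immune genes rise, which is the setting in which the treatment was given.

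Single libraries stood apart in several ways, and these are given before the results. Total counts were 12283458 to 15220202 per library, and depth did not separate the groups. No pair of libraries of a group was a repeat of the other. Of 13428 genes with a mean log2 CPM of at least 1 (CPM, read counts scaled to a common TMM-corrected library size), the number that lay 2-fold or more from the median of the other 5 libraries was 145 higher and 47 lower in 8-AG library 1, and 37 higher and 49 lower in untreated library 2. The other 4 libraries had 28 to 37 such genes higher and 25 to 43 lower. By this count 8-AG library 1 was the library farthest from the rest, and untreated library 2 was within the range of the other 4 for higher genes and above it for lower genes. The first principal component, 31.5% of the variance, also set 8-AG library 1 (at -36.55) against the other 5 (1.87 to 13.21).

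**Figure D1:**
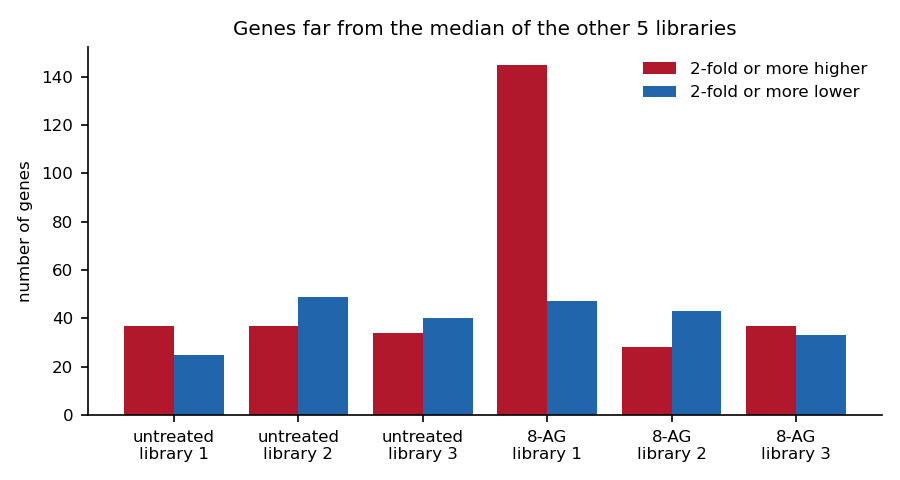
Number of genes (vertical axis) at 2-fold or more above (red) or below (blue) the median of the other 5 libraries, for each of the 6 retina libraries, among 13428 genes. 8-AG library 1 has 145 genes above, and no other library has more than 37; untreated library 2 has 49 below.

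Where 3 values are given for a group, they are those of libraries 1, 2 and 3 in that order. What set each library apart was a different group of genes. In 8-AG library 1 the lens crystallin Cryaa was at 1239 CPM, with 0.564 to 1.75 CPM in the other libraries. Cryab, a small heat shock protein that is also a lens crystallin, was at 391 CPM against 36.996 to 40.02 CPM, and Grifin, a lens galectin, at 28.9 against 0.273 to 1.11 CPM. The 21 lens genes found in the table summed to 2373 CPM in 8-AG library 1 and to 64.1 to 71.4 CPM in the other 5. The epithelial cadherin Cdh1 was at 97.7 against 5.21 to 7.36 CPM. Untreated library 2 was instead high in antigen presentation genes and blood genes and low in genes of the retinal pigment epithelium. Alox15, a lipoxygenase, was at 12.4 CPM there and at 0.564 to 1.92 CPM elsewhere. Cd74, the invariant chain of MHC class II, was at 96.99 against 10.99 to 19.2 CPM, and RT1-Da, an MHC class II chain, at 39.1 against 3.88 to 8.41 CPM. Rpe65, the retinoid isomerase of the pigment epithelium, was at 4.69 CPM against 24.9 to 64.8 CPM in the other libraries, and Rgr, its opsin-like partner, at 6.32 against 25.4 to 44.7 CPM. Untreated library 3 was the highest of the 6 for 26 of 44 interferon response genes. For results that moved most when one of these libraries was left out, the value without it is given as well.

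In 8-AG-treated against untreated retina, 77 genes were higher (0.526% of the genes tested) and 63 lower (0.431%) by the rule used here for a differentially expressed gene (DEG), which is a change of more than 1.5-fold with P under 0.05 before adjustment. At a Benjamini-Hochberg adjusted p under 0.05 there were 3 genes (0.0205%), all higher with treatment, and 537 genes had an unadjusted P under 0.05 (3.67%), of which 298 were higher and 239 lower. The share of 3.67% was below the 0.05 that this threshold lets through on average when no gene differs. A single DEG by the rule can therefore be a false call. Most DEGs had few reads: 72 of the 77 higher and 57 of the 63 lower ones had a mean under 10 CPM, while 10219 of the 14631 genes tested had 10 CPM or more. The groups did not overlap in 67 of the higher and 51 of the lower DEGs, and in 8.8% of all genes tested. Leaving out untreated library 2 gave 112 higher (0.761%) and 143 lower DEGs (0.971%), which included 56 and 41 of those found with all libraries. Leaving out untreated library 3 gave 72 higher (0.488%) and 70 lower. Leaving out 8-AG library 1 gave 89 (0.596%) and 96 (0.643%), which included 50 and 32. Of the higher DEGs, 36 were DEGs in the same direction in all 6 fits that leave out a library, and of the lower DEGs 10 were. Of the 72 genes named in the text with an unadjusted P under 0.05, 43 kept it and their direction in all 6 of these fits. The other 29, which lost it in at least 1 of them, were Angptl4, Arhgap30, B3gnt5, Cav1, Cd55, Cnga3, Col27a1, Col6a2, Dbp, Ddx58, Dusp1, Entpd3, Esrrb, Fcgr3a, Gpx4, Hsp90b1, Hspa1a, Irgm, Kcnv2, Krt13, Krt8, Mt2A, Oas1a, Oas1b, Rbp3, Rorb, Rsad2, Tef and Xaf1. With untreated library 2 and 8-AG library 1 both left out, an alternative chosen after seeing the data, 108 genes were higher DEGs (0.736%) and 179 were lower ones (1.22%). In that fit 55 genes (0.375%) had an adjusted p under 0.05, 26 higher and 29 lower with treatment.

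Among the largest increases were genes of stratified surface epithelium, the tissue of the cornea, conjunctiva and skin. Of 35 genes on this list, 33 were found and 20 tested; 18 of the 20 were higher and 2 lower with 8-AG, and 10 were DEGs, all higher, where 0.526% of all genes were. Their median log2 fold change was 1.44, and that of all genes tested was -0.0031. These counts and this median are a description only. The list was drawn up with earlier results of these data known. Krt5, Krt12, Elf3 and Sprr1a, at 0.521 CPM or less in every untreated library, passed the expression filter through the treated libraries. Members found but not tested are left out, which tilts the list upward, whereas the summed level below uses all 33. Without untreated library 2 and without 8-AG library 1 the median was 1.48 and 1.13, with 10 higher DEGs in both fits. The summed level of the list was 253, 126 and 143 CPM with 8-AG and 86.3, 95.8 and 87.03 CPM without. The groups did not overlap. 8-AG library 1 stood highest, and in it Cdh1 and Aldh3a1, a corneal crystallin enzyme, held 97.7 and 41.2 CPM of the sum. In bulk tissue, more cells of a type and more RNA per cell cannot be told apart.

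The gene AABR07034428.1 (ENSRNOG00000001777), which was matched by its values to the name Muc4, a membrane mucin of the ocular surface, was at 6.76, 6.58 and 9.22 CPM with 8-AG and 0.241, 0.847 and 0.211 CPM without (log2 fold change 4.05, standard error 0.41, adjusted p = 0.034). Gp2 (ENSRNOG00000015716), a membrane glycoprotein of mucosal epithelium and pancreas, was at 6.76, 4.33 and 4.85 CPM with 8-AG and 0.0802, 0.391 and 0.564 CPM without (log2 fold change 3.87, standard error 0.42, adjusted p = 0.034). Clca4l (ENSRNOG00000036877), of the family of calcium-activated chloride channel regulators, was at 2.595, 3.08 and 2.32 CPM with 8-AG and 0.1603, 0.391 and 0.352 CPM without (log2 fold change 3.07, standard error 0.36, adjusted p = 0.043). These are the 3 genes past the adjusted threshold, and over all 3 the lowest treated value was 2.32 CPM (Clca4l) and the highest untreated value 0.847 CPM (AABR07034428.1). The adjusted p depended on the libraries and on the fit. With all 6 libraries, none of the 3 passed without robust shrinkage or with the replicate number as a block, and a minimum of 10 counts in every library left all 3 out of the test. With a library left out it ran from 0.002 to 0.19 for AABR07034428.1, from 0.037 to 0.11 for Gp2 and from 0.071 to 0.31 for Clca4l, and the unadjusted P of all 3 stayed under 0.05.

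Several keratins were DEGs as well. Krt12, the keratin that marks corneal epithelium, was at 1.42, 9.497 and 8.13 CPM with 8-AG and 0.241, 0.521 and 0.141 CPM without (log2 fold change 4.33, standard error 0.89, unadjusted P = 0.0027). In Krt12 the lowest treated value was that of 8-AG library 1, the library rich in lens genes, and the 2 other treated libraries were both above 8 CPM. Krt5, the basal epithelial keratin, was at 1.97, 2.08 and 3.41 CPM with 8-AG and 0.481, 0.521 and 0.141 CPM without (log2 fold change 2.69, standard error 0.44, unadjusted P = 1.4e-04). Krt13, of the non-cornified epithelium of the conjunctiva, was at 4.01, 1.67 and 5.87 CPM with 8-AG and 0.1603, 1.69 and 0.423 CPM without, where untreated library 2 was above 8-AG library 2. Its log2 fold change was 2.29 with all libraries (unadjusted P = 0.021) and 3.66 without untreated library 2, and the call was lost without 8-AG library 1 (unadjusted P = 0.068) and without untreated library 3 (0.079). Krt15, also of basal cells, was at 3.696, 3.25 and 7.65 CPM with 8-AG and 1.76, 2.15 and 2.04 CPM without (log2 fold change 1.30, standard error 0.34, unadjusted P = 0.0038). Elf3, an epithelial transcription factor, was at 3.07, 1.4995 and 1.98 against 0.401, 0.261 and 0.282 CPM in the same order (log2 fold change 2.78, standard error 0.41, unadjusted P = 6.1e-05). The cornified envelope precursor Sprr1a was at 1.81, 3.58 and 4.98 CPM with 8-AG and 0, 0.261 and 0 CPM without, so that 2 untreated libraries held no read of it. The desmosomal genes Dsp and Perp had log2 fold changes of 1.42 and 1.61, and Aqp5, a water channel of the corneal epithelium, one of 1.46, all 3 without overlap between the groups. Simple epithelial keratins differed less. Krt8 was higher at 0.55 (unadjusted P = 0.041), a call lost without 8-AG library 1 (log2 fold change 0.30), without untreated library 2 (0.44) and without untreated library 3 (0.52). Krt18 had a log2 fold change of 0.30 and Krt19 one of 0.18, with overlapping groups, and their sign turned without 8-AG library 1 (-0.06 for Krt18) and without untreated library 2 (-0.01 for Krt19).

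**Figure D2:**
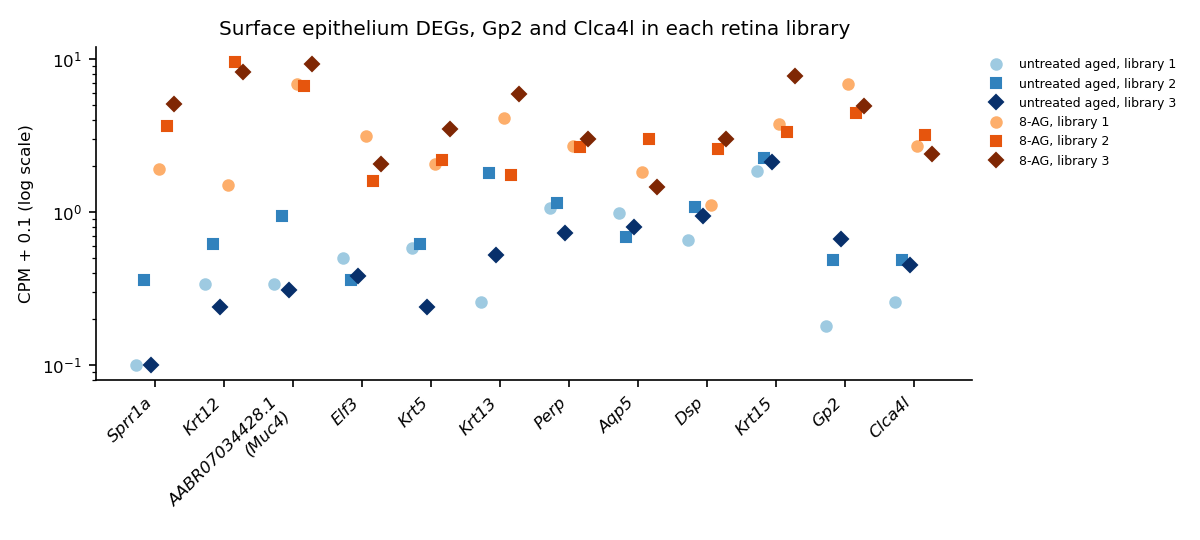
Level of the 10 surface epithelium DEGs and of Gp2 and Clca4l (horizontal axis) in each retina library, as CPM + 0.1 on a log axis; each point is a library, blue untreated and orange to brown 8-AG. The 8-AG points lie above the untreated points for every gene shown except Krt13.

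Outside the list, the largest increases were in genes of various kinds. Ppl, which encodes periplakin of the cornified envelope, was at 15.4, 6.33 and 6.56 CPM with 8-AG and 2.49, 2.35 and 1.903 CPM without (log2 fold change 2.07, standard error 0.38, unadjusted P = 6.6e-04), and for its partner envoplakin, Evpl, the log2 fold change was 1.63 ± 0.36 (standard error). The following were chosen after their values were seen: Krt80, an epithelial keratin, at 3.65, and Scel, the envelope protein sciellin, at 2.26. B3gnt5, a glycosyltransferase of lactosylceramide chains, was at 15.3, 4.998 and 4.03 CPM with 8-AG and 3.21, 3.19 and 3.45 CPM without, with 8-AG library 1 far above the rest. Without that library its log2 fold change was 0.45 (unadjusted P = 0.069). LOC102551606 was at 5.27, 10.2 and 5.19 CPM with 8-AG and 0, 0.782 and 0 CPM without. The gene listed as Wbp11, the name of a splicing factor, was at 9.75, 15.3 and 3.41 CPM with 8-AG and 0.401, 0.0651 and 0 CPM without (log2 fold change 5.95, standard error 0.97, unadjusted P = 8.5e-04). Expected counts can be split between near-identical copies of a gene, so the values of these 2 genes are uncertain. Emp1, an epithelial membrane protein, was at 14.5, 22.9 and 23.8 CPM with 8-AG and 2.73, 12.6 and 3.101 CPM without, and of the untreated libraries the second lay nearest to the treated ones. Emp1 was not a DEG. Its log2 fold change was 1.70 with all libraries (adjusted p = 0.996) and 2.80 without that library (adjusted p = 0.018), where it joined AABR07034428.1 as the second gene past the adjusted threshold.

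The RPE/choroid libraries of the same study, which were counted and normalized separately, held these genes at uneven levels. The labels of RPE/choroid untreated libraries 1 and 2 share a number and differ in a letter, L against R, so both may come from a single animal, and the values and test below count them as separate samples. Gp2 was at 237, 0.219 and 3.08 CPM with 8-AG and 1.64, 0.8197 and 0.332 CPM without. Clca4l was at 147, 0.192 and 23.6 CPM with 8-AG and 0.0316, 0.176 and 0.0663 CPM without, and AABR07034428.1 at 126, 0 and 32.5 CPM with 8-AG and 0.0948, 0.205 and 0.0332 CPM without. In all 3 genes RPE/choroid 8-AG library 1 was highest and 8-AG library 3 next, and 8-AG library 2 was at 0.219 CPM or less. Rod genes in RPE/choroid summed to 68379, 1171 and 1226 CPM with 8-AG and 13799, 843 and 19594 CPM without. Pigment epithelium genes there summed to 7668, 30490 and 35661 CPM with 8-AG and 29144, 32954 and 16060 CPM without. RPE/choroid 8-AG library 1 was thus the richest in rod genes and the poorest in pigment epithelium genes, and the values and test below include it. Summed over the 33 surface epithelium genes, RPE/choroid was at 3603, 669.8 and 1250 CPM with 8-AG and 598, 542 and 809.8 CPM without, so the groups overlapped there. The change with 8-AG in retina minus that in RPE/choroid, tested as an interaction in edgeR, had no gene at an adjusted p under 0.05 (0%) of 16915 tested, and 413 genes at an unadjusted P under 0.05. For AABR07034428.1 the interaction was -4.70 on the log2 scale (standard error 2.49), for Gp2 -2.46 (2.61) and for Clca4l -6.04 (2.36). The part of cornea, conjunctiva or lens cells left with the dissected tissue in these differences was not tested.

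The smallest P-values among genes lower with 8-AG were those of Camk1d, Zbtb16 and Fkbp5, the last 2 of which glucocorticoids are known to induce. Zbtb16 (ENSRNOG00000029980), which encodes the transcription repressor PLZF, was at 5.98, 7.58 and 8.67 CPM with 8-AG and 19.6, 16.2 and 14.4 CPM without (log2 fold change -1.17, standard error 0.17, adjusted p = 0.12). The highest treated library was below the lowest untreated one, and the log2 fold change lay between -1.30 and -1.03 with any single library left out. Fkbp5, a co-chaperone of the glucocorticoid receptor, was at 31.5, 35.9 and 35.99 CPM with 8-AG and 44.3, 49.4 and 45.2 CPM without (log2 fold change -0.43, standard error 0.09, unadjusted P = 9.7e-04), again without overlap. Both genes had been higher in aged than in young retina, by 1.46 and 0.74 on the log2 scale (adjusted p = 0.0014 and 5.6e-04), in a comparison that shares the untreated aged libraries. The list of glucocorticoid-responsive genes as a whole did not move one way. Of 18 tested on it, Zbtb16 and Fkbp5 among them, 11 were higher and 7 lower with a median of 0.04. Dusp1, a phosphatase, was higher at 0.29 on that scale. Angptl4, an inhibitor of lipoprotein lipase, was higher at 0.54. Mt2A, a metallothionein, was lower at -0.53, a call lost without untreated library 2 (log2 fold change -0.29, unadjusted P = 0.14 without it). Sgk1, a kinase that the hormone induces, was at 183, 198 and 185 CPM with 8-AG and 151, 122 and 187 CPM without, with overlapping groups. Its log2 fold change was 0.30 with all libraries (unadjusted P = 0.062) and 0.46 without untreated library 3 (unadjusted P = 0.0022). Lyve1, a hyaluronan receptor of lymphatic endothelium and some macrophages that was also on this list, was higher, at 0.98.

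Camk1d, a calcium/calmodulin-dependent kinase chosen after its values were seen, had the most reads among the lower DEGs, at 77.2, 91.1 and 93.1 CPM with 8-AG and 127, 129 and 138 CPM without (log2 fold change -0.59, standard error 0.09, adjusted p = 0.12). The groups did not overlap. Map3k6, a stress-activated kinase, was at 4.64, 3.83 and 4.03 CPM with 8-AG and 6.81, 8.21 and 6.69 CPM without (log2 fold change -0.80, standard error 0.17, unadjusted P = 0.0011). Other large decreases included loci known only by a clone name. AABR07060678.1 had a log2 fold change of -1.21, AABR07029803.1 one of -1.24 and AABR07044569.1 one of -1.06. Arhgap30, a GTPase regulator of blood cells, was at 1.97, 1.08 and 1.91 CPM with 8-AG and 2.73, 3.71 and 2.11 CPM without, and its log2 fold change went from -0.78 to -0.53 without untreated library 2.

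Most interferon response genes were lower with 8-AG. Interferons, made when cells sense viral or misplaced nucleic acid, switch on a large set of genes through a protein complex that holds IRF9 and binds the interferon-stimulated response element (ISRE) in their promoters. Of 44 genes tested on this list, 42 were lower and 2 higher with 8-AG, while 51% of all genes tested were lower. DEGs numbered 5, all lower, where 0.431% of all genes were, and 11 were lower at an unadjusted P under 0.05 (1.63% of all genes); none reached an adjusted p under 0.05. The median log2 fold change was -0.38.

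To show what these members share beyond the list, their promoters were read from RefSeq (GRCr8; 250 bases before to 50 after the start). A promoter was matched by symbol for 34 of the 44 tested genes, and 24 of these (70.6%) held the ISRE core on either strand, searched as GAAA, any 2 bases and GAAA. The same core was in 3.92% of all 33469 promoters there, and, of the genes tested in retina with a promoter, in 3.05%. The 150 bases before the start are printed below 5′ to 3′ along the gene for 4 of the 5 DEGs of the list and for Irgm, one of the members lower in every treated library than in any untreated one, with the matched letters in capitals. For Ddx58, the fifth DEG, no promoter was matched by symbol. In Oas1a and Oas1b, neighbouring copies of the oligoadenylate synthetase gene, 2 matches overlap into a single run.
Rsad2, chr6:48788121-48788270, minus strand: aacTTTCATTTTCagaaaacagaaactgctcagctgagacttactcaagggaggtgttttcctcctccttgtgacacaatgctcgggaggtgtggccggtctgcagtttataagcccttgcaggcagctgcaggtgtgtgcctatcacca
Oas1a, chr12:41330316-41330465, plus strand: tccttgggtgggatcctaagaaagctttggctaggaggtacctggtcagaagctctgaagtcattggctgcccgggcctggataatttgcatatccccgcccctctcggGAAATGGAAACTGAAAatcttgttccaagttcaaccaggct
Oas1b, chr12:41395853-41396002, minus strand: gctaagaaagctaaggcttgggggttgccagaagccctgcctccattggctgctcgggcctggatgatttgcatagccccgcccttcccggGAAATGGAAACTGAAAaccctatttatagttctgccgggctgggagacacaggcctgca
Xaf1, chr10:57415785-57415934, plus strand: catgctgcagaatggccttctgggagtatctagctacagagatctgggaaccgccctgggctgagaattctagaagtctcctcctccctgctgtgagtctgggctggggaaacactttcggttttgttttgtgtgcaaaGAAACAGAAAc
Irgm, chr10:33742579-33742728, minus strand: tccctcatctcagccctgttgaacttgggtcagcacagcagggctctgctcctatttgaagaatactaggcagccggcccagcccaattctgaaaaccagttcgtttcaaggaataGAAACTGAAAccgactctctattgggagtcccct

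The differences of single members were small. Irf9, the DNA-binding part of the complex, was at 20.4, 19.3 and 21.1 CPM with 8-AG and 23.3, 28.5 and 28.3 CPM without (log2 fold change -0.40, standard error 0.11, unadjusted P = 0.0047), without overlap between the groups. Stat2 was at 65.4, 63.4 and 60.3 CPM with 8-AG and 64.1, 75.6 and 74.2 CPM without, where untreated library 1 lay among the treated ones. Irgm, an interferon-induced GTPase, was at 7.71, 6.83 and 7.58 CPM with 8-AG and 9.701, 9.25 and 12.8 CPM without (log2 fold change -0.52, standard error 0.16, unadjusted P = 0.0099). Oas1b was at 4.48, 5.91 and 5.804 CPM with 8-AG and 9.22, 6.25 and 11.7 CPM without (log2 fold change -0.74, standard error 0.24, unadjusted P = 0.011). Oas1a, which shares sequence with it and may have exchanged reads in the estimate, was at 4.09, 3.08 and 4.71 CPM with 8-AG and 4.57, 5.602 and 11.6 CPM without. Ddx58, which encodes the RNA sensor RIG-I, was at 3.85, 4.92 and 4.097 CPM with 8-AG and 5.69, 5.602 and 8.95 CPM without (log2 fold change -0.66, standard error 0.23, unadjusted P = 0.017). Xaf1, an inducer of cell death, was at 2.04, 1.25 and 2.05 CPM with 8-AG and 2.65, 2.74 and 3.88 CPM without. Rsad2, which encodes the antiviral enzyme viperin, was at 13.1, 21.5 and 16.3 CPM with 8-AG and 21.3, 21.6 and 35.2 CPM without. In Oas1a and Rsad2 the groups overlapped, and untreated library 3 was far above the rest. Mx2, a dynamin-like antiviral GTPase, was at 24.5, 19.6 and 27.6 CPM with 8-AG and 31.8, 28.5 and 65.9 CPM without, and Usp18, the protease that removes ISG15, at 6.21, 6.33 and 5.87 CPM with 8-AG and 6.49, 7.295 and 15.01 CPM without. In both, untreated library 3 was again far above the rest, the groups did not overlap, and neither passed the test (unadjusted P = 0.072 and 0.07). Without untreated library 3 the log2 fold changes of the 5 DEGs went from -0.87 to -0.36 (Oas1a), -0.62 to -0.34 (Rsad2), -0.66 to -0.40 (Ddx58), -0.78 to -0.59 (Xaf1) and -0.74 to -0.51 (Oas1b), none past the test. The 2 genes that were higher were Cmpk2, a mitochondrial nucleotide kinase, at 0.07 on the log2 scale and Ifitm3, a membrane restriction factor, at 0.07, neither past the test and both with a sign that turned when a library was left out (-0.09 for Ifitm3 without 8-AG library 1).

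The size of this difference moved with untreated library 3. The 44 genes summed to 752, 725 and 709 CPM with 8-AG and 740.2, 867 and 994 CPM without, so that untreated library 1 lay among the treated libraries and untreated library 3 was highest. The list's median log2 fold change was -0.18 without untreated library 3, with 38 genes lower, 6 higher and no DEG (0.475% of all genes were lower DEGs in that fit). Without untreated library 2 it was -0.37 with 10 lower DEGs, and without 8-AG library 1 -0.40 with 4. The calls of DEGs on this list were lost without untreated library 3. In aged against young retina, 43 of the genes were tested, all 43 were higher with age, 37 at an adjusted p under 0.05 (7.29% of all genes), and the median was 1.73; the untreated aged libraries are the same in both comparisons. Mx1, for example, had a log2 fold change of 4.63 with age and of -0.59 with 8-AG (unadjusted P = 0.061).

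**Figure D3:**
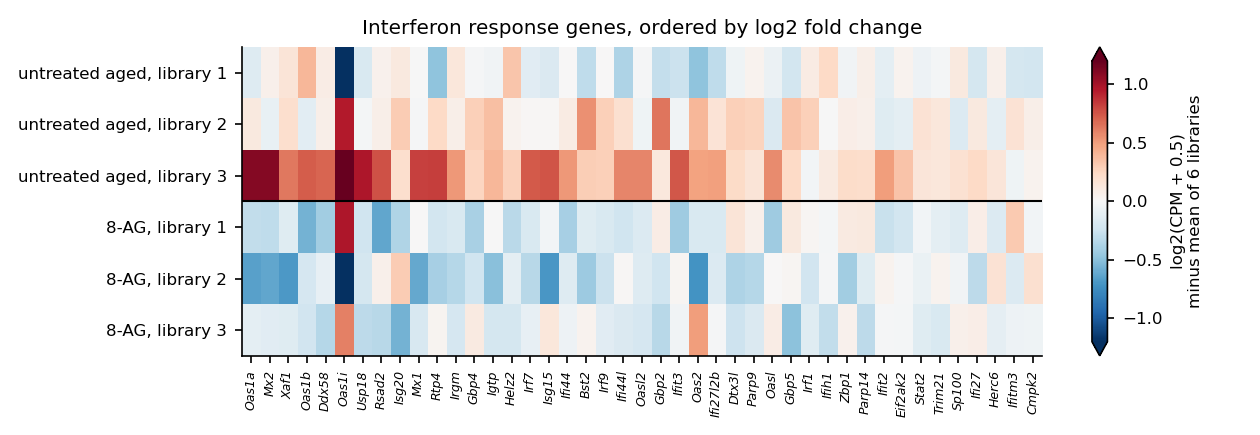
Level of 43 of the 44 interferon response genes (horizontal axis, ordered from the largest decrease with 8-AG) in each library (vertical axis), as log2(CPM + 0.5) minus the gene's mean over the 6 libraries; red is above and blue below that mean, and colours beyond the ends of the scale are cut. Untreated library 3 is the reddest row, untreated library 1 mixes pale red and blue, and the 8-AG libraries are mostly blue.

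Rod photoreceptor genes were mostly higher with 8-AG. Of 32 rod genes tested, 26 were higher and 6 lower, while 49% of all genes were higher. Of the 32, 8 were higher and 0 lower at an unadjusted P under 0.05 (2.04% of all genes were higher by that test), and 1 was a higher DEG (0.526% of all genes were). The median log2 fold change was 0.19, with 0.12 to 0.26 when a library was left out. Gnat1 (ENSRNOG00000017589), the rod transducin of the light response, was at 7756, 9027 and 8925 CPM with 8-AG and 6228, 5612 and 6362 CPM without (log2 fold change 0.50, standard error 0.10, adjusted p = 0.35). All treated libraries were above all untreated ones, and its log2 fold change stayed between 0.45 and 0.56. Rcvrn, the calcium sensor recoverin, was at 951, 1006 and 984 CPM with 8-AG and 771, 836 and 878 CPM without (log2 fold change 0.24, standard error 0.07, unadjusted P = 0.0089). Rbp3, the retinoid carrier between rods and pigment epithelium, was at 1397, 1477 and 1438 CPM with 8-AG and 1153, 1196 and 1351 CPM without. Neither overlapped. Esrrb, a nuclear receptor of rods, was the DEG, at 74.1, 108 and 95.5 CPM with 8-AG and 66.5, 33.7 and 53.3 CPM without (log2 fold change 0.86, standard error 0.27, unadjusted P = 0.022). Without untreated library 3 its log2 fold change was 0.89 and the call was lost (unadjusted P = 0.054). Pde6b, a phosphodiesterase subunit, had a log2 fold change of 0.09 and Sag, the rod arrestin, one of -0.02, with overlapping groups. Summed, rod genes were at 50506, 60838 and 66010 CPM with 8-AG and 50091, 50088 and 55520 CPM without. 8-AG library 1, the library rich in lens genes, was at the untreated level, and the other 2 treated libraries were above all untreated ones. In aged against young retina all 32 were lower with age, 26 at an adjusted p under 0.05 (7.26% of all genes), with a median of -0.64. Gnat1 was at -1.18 with age and 0.50 with 8-AG on the log2 scale, from comparisons that share the untreated aged libraries. Esrrb was at -1.41 with age, which did not pass (adjusted p = 0.084), and at 0.86 with 8-AG.

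Cone genes gave 9 higher and 7 lower of 16 tested, with 3 higher at an unadjusted P under 0.05 (2.04% of all genes) and a median of 0.05. That median ran from -0.004 to 0.13 when a library was left out, and without 8-AG library 1 the tally was 12 higher and 4 lower. Opn1sw, the short-wavelength cone opsin, was at 34.6, 29.4 and 33.3 CPM with 8-AG and 23.6, 23.9 and 21.5 CPM without (log2 fold change 0.50, standard error 0.10, unadjusted P = 6.7e-04), again without overlap. Kcnv2, a modulatory potassium channel subunit of photoreceptors, was at 410.2, 408 and 327 CPM with 8-AG and 319, 289 and 326 CPM without, and its groups did not overlap, with 326.5 CPM in the lowest treated and 326.1 CPM in the highest untreated library. Cnga3, the cone cyclic nucleotide-gated channel, had a log2 fold change of 0.56 at 1.95 to 3.46 CPM. Bipolar cell genes lay on the other side: of 23 tested, 21 were lower and 2 higher, with 2 lower at an unadjusted P under 0.05 (1.63% of all genes), no DEG, and a median of -0.13, with -0.21 to -0.05 when a library was left out. Pcp2, a G protein modulator of rod bipolar cells, was at 53.9, 66.1 and 64.7 CPM with 8-AG and 81.5, 79.2 and 71.6 CPM without (log2 fold change -0.33, standard error 0.10, unadjusted P = 0.0065). Kcng4, a potassium channel subunit, was at 39.95, 35.3 and 30.3 CPM with 8-AG and 46.8, 57.1 and 41.7 CPM without (log2 fold change -0.47, standard error 0.14, unadjusted P = 0.0077). The bipolar genes summed to 1987, 1874 and 1590 CPM with 8-AG and 2407, 1782 and 2095 CPM without, with overlapping groups. Ganglion cell genes were higher in 16 of 20, with a median of 0.07. Eomes, of the light-sensitive ganglion cells among others, was at 9.201, 7.58 and 7.72 CPM with 8-AG and 5.13, 5.86 and 5.57 CPM without (log2 fold change 0.56, standard error 0.16, unadjusted P = 0.0054). Amacrine genes were higher in 10 of 20, horizontal cell genes in 5 of 9 (3 of 9 without untreated library 2) and Müller glia genes in 11 of 22, with no DEG in these lists.

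**Figure D4:**
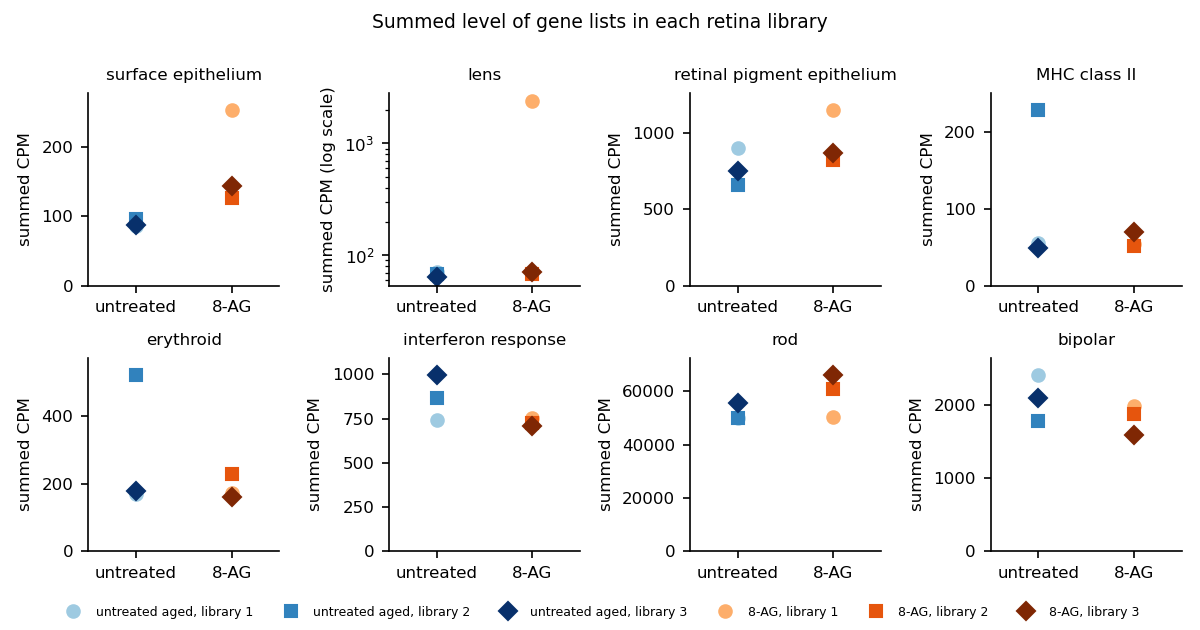
Summed CPM of 8 gene lists (panels; the lens panel has a log axis) in untreated and 8-AG-treated retina; each point is a library, with the shape giving its number. 8-AG library 1 stands alone in the lens panel at 2373 CPM, untreated library 2 in the MHC class II (228 CPM) and erythroid (521 CPM) panels, and untreated library 3 is highest for interferon response.

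Several list medians changed sign without untreated library 2, those of the MHC class II, erythroid and microglia lists by the most. Smaller changes of sign included gliosis genes, from -0.07 to 0.16, astrocyte genes, from -0.12 to 0.01, chemokines and cytokines, from -0.04 to 0.10, and NF-kappaB and Toll-like receptor genes, from -0.03 to 0.12. MHC class II molecules present peptides to T cells and are made by activated microglia and macrophages. Cd74 was at 16.8, 15.5 and 19.2 CPM with 8-AG and 16.8, 96.99 and 10.99 CPM without, and RT1-Da at 8.41, 5.08 and 8.19 CPM with 8-AG and 4.65, 39.1 and 3.88 CPM without. In both genes untreated library 2 was the one untreated library above the treated range. Without it 6 of the 9 genes tested were higher with 8-AG and 3 lower, where all 9 had been lower. Cd74 went from -1.28 to 0.32 on the log2 scale and RT1-Da from -1.14 to 0.77, and neither was past the test with all libraries. Without untreated library 2 RT1-Da was a higher DEG (unadjusted P = 0.014, adjusted p = 0.74), where 0.761% of all genes were in that fit. Reads of RT1 genes can be shared between paralogs. Erythroid genes, the haemoglobins among them, summed to 171, 229 and 162 CPM with 8-AG and 170.1, 521 and 178 CPM without. C3, the central complement component, was at 97.8, 105 and 99.2 CPM with 8-AG and 107, 172 and 74.7 CPM without. The glial filament Gfap, a marker of reactive glia, was at 294, 291 and 212 CPM with 8-AG and 254, 454 and 223 CPM without. Both had their highest value in untreated library 2, and their log2 fold changes went from -0.23 to 0.15 and from -0.22 to 0.16 without it. Of 26 microglia and macrophage genes, 16 were lower with all libraries, and the median moved from -0.09 to 0.26 without that library. This list had 1 higher and 1 lower DEG (0.526% and 0.431% of all genes). Without untreated library 2 it had 3 higher DEGs and no lower one, with 22 of 26 genes higher (0.761% of all genes were higher DEGs in that fit). Without untreated library 3 its median was -0.27, with 18 of 26 genes lower, 1 higher DEG and 2 lower ones. Of all genes, 0.488% were higher and 0.475% lower DEGs in that fit. The DEGs with all libraries were Mrc1, the mannose receptor of perivascular macrophages, higher at 2.04, 1.75 and 2.12 CPM with 8-AG and 0.722, 1.24 and 0.352 CPM without (log2 fold change 1.33, standard error 0.40, unadjusted P = 0.008), and the Fc receptor Fcgr3a, lower at 3.38, 5.41 and 3.82 CPM with 8-AG and 7.22, 8.66 and 4.23 CPM without, a call that was lost without untreated library 2 (unadjusted P = 0.17). Of 21 complement genes, 3 were higher at an unadjusted P under 0.05 (2.04% of all genes) and none lower. Cd59, an inhibitor of the membrane attack complex, was at 106, 115 and 107 CPM with 8-AG and 87.6, 97.4 and 91.5 CPM without (log2 fold change 0.25, standard error 0.07, unadjusted P = 0.0072), and Cd55, which speeds the decay of convertases, was a DEG at 2.36, 1.92 and 1.502 CPM with 8-AG and 0.722, 1.43 and 0.705 CPM without, a call lost without 8-AG library 1 (unadjusted P = 0.078).

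Pigment epithelium genes were higher in 22 of 22 tested with all libraries, with a median of 0.41, no DEG and none at an unadjusted P under 0.05. They summed to 1152, 826 and 869 CPM with 8-AG and 901, 663 and 755 CPM without. Rpe65 was at 64.8, 32.8 and 24.9 CPM with 8-AG and 42.4, 4.69 and 26.8 CPM without. Tyrp1, a melanosome enzyme, was at 83.05, 26.2 and 43.02 CPM with 8-AG and 42.7, 23.6 and 25.5 CPM without. Ttr, the retinol and thyroxine carrier, was at 83.7, 40.6 and 42.6 CPM with 8-AG and 48.4, 11.1 and 49.96 CPM without. For 17 of the 22 genes the highest library was 8-AG library 1, and for 15 the lowest was untreated library 2. With both left out, 12 were higher and 10 lower and the median was 0.02. How much pigment epithelium came away with each retina was not tested.

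A few clock genes, which run the daily rhythm of the retina, passed the unadjusted test. Of 21 tested, 11 were higher and 10 lower, with 2 higher and 3 lower at an unadjusted P under 0.05 (2.04% and 1.63% of all genes). The 3 lower ones were Dbp, Tef and Ciart. Dbp, a PAR bZIP activator driven by the clock, was at 145, 130.3 and 133 CPM with 8-AG and 161, 150.4 and 164 CPM without (log2 fold change -0.22, standard error 0.07, unadjusted P = 0.015). Tef, its relative, was at 208, 208 and 192 CPM with 8-AG and 227, 217 and 234 CPM without (log2 fold change -0.16, standard error 0.07, unadjusted P = 0.046). Ciart, a repressor of the CLOCK and BMAL1 pair, was at 7.16, 7.66 and 8.67 CPM with 8-AG and 11.9, 9.18 and 12.3 CPM without (log2 fold change -0.50, standard error 0.16, unadjusted P = 0.01). None of the 3 overlapped between groups. Drd4, the dopamine receptor that cycles in photoreceptors, was higher, at 30.1, 26.6 and 26.97 CPM with 8-AG and 21.8, 15.96 and 19.8 CPM without (log2 fold change 0.54, standard error 0.13, unadjusted P = 0.0018), and Rorb, a nuclear receptor of photoreceptors, had a log2 fold change of 0.32. The core gene Arntl, which encodes BMAL1, was at 148, 169 and 198 CPM with 8-AG and 136, 133 and 165 CPM without, with overlapping groups. Nr1d1, a repressor of Arntl, had a log2 fold change of -0.17. Without 8-AG library 1 the log2 fold change of Arntl was 0.34 (unadjusted P = 0.012) and that of Nr1d1 -0.37 (unadjusted P = 5.4e-04). Nr1d1 was one of the 55 genes at an adjusted p under 0.05 with that library and untreated library 2 left out. The hour at which each eye was taken is not given in the sources used here. The E-box CACGTG, the site of CLOCK and BMAL1, was in 5 of 17 clock list promoters matched (29.4%), against 6.42% of all promoters and 9.42% of those of genes tested in retina. This share describes the list and does not bear on 8-AG. Ciart, whose promoter holds 3 E-boxes, is shown because it had the largest decrease of the clock genes past the test. Its E-boxes are in capitals, in the same 150 bases before the start.
Ciart, chr2:186112247-186112396, minus strand: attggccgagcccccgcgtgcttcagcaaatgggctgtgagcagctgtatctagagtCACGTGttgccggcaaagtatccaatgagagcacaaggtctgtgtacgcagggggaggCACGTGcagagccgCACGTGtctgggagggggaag

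A few chaperones were higher. Of 30 heat shock and endoplasmic reticulum stress genes, 20 were higher, while 49% of all genes were, and the median was 0.03. At an unadjusted P under 0.05, 3 were higher (2.04% of all genes) and none lower. Hspa8, the constitutive cytosolic chaperone, was at 428, 438 and 408 CPM with 8-AG and 331, 379.6 and 322 CPM without (log2 fold change 0.30, standard error 0.08, unadjusted P = 0.0039). Hspa1a, the inducible one, was at 121, 113 and 111 CPM with 8-AG and 88.7, 106 and 94.5 CPM without (log2 fold change 0.26, standard error 0.08, unadjusted P = 0.011). Hsp90b1, of the endoplasmic reticulum, was at 706, 752 and 676 CPM with 8-AG and 629, 622 and 629 CPM without (log2 fold change 0.18, standard error 0.07, unadjusted P = 0.025). None of these 3 overlapped between groups. On the same list, Asns, asparagine synthetase, was at 52.7, 50.2 and 63.8 CPM with 8-AG and 53.1, 89.2 and 118 CPM without. Sesn2, a stress-induced inhibitor of mTORC1, was at 27.3, 25.2 and 32.2 CPM with 8-AG and 27.6, 46.6 and 75.5 CPM without. In both, the untreated libraries ran from the treated level in library 1 to the highest value in library 3, the order seen for the interferon response sum, and neither passed the test (unadjusted P = 0.081 and 0.078).

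No gene of purine metabolism, the pathway in which 8-AG acts, passed the test with all libraries. Of 29 tested, 12 were higher and 17 lower, none was a DEG or at an unadjusted P under 0.05, and the median log2 fold change was -0.04. Pnp, purine nucleoside phosphorylase itself, was at 24.2, 24.4 and 25.7 CPM with 8-AG and 25.1, 27.4 and 22.8 CPM without (log2 fold change -0.02, standard error 0.10, unadjusted P = 0.87). Xdh, xanthine dehydrogenase, which makes uric acid, was at 13.1, 12.7 and 11.5 CPM with 8-AG and 12.3, 16.8 and 13.2 CPM without. Gda, guanine deaminase, was at 5.43, 5.998 and 5.26 CPM with 8-AG and 3.77, 8.14 and 3.73 CPM without (log2 fold change 0.08, standard error 0.30, unadjusted P = 0.79). In both, the highest library was untreated library 2. Without it Gda passed the unadjusted test, with a log2 fold change of 0.57 (unadjusted P = 0.021). The summed level of the list was 1192, 1199 and 1187 CPM with 8-AG and 1175, 1208 and 1213 CPM without. Among 22 purine receptor and ectonucleotidase genes, Entpd3, an ectonucleotidase of neurons, was higher at 9.12, 9.497 and 7.99 CPM with 8-AG and 6.01, 6.71 and 7.33 CPM without (log2 fold change 0.40, standard error 0.15, unadjusted P = 0.024), and no other member passed at an unadjusted P under 0.05, where 3.67% of all genes did. Of 30 antioxidant genes, 16 were higher and 14 lower with all libraries, and 24 were higher and 6 lower without untreated library 2. Gpx4, which repairs lipid peroxides, was the one of the 30 past the unadjusted threshold (3.67% of all genes were), at 282, 300.4 and 302 CPM with 8-AG and 236, 274 and 261 CPM without (log2 fold change 0.20, standard error 0.08, unadjusted P = 0.027). Of 28 apoptosis genes 15 were higher and 13 lower, none past it.

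**Figure D5:**
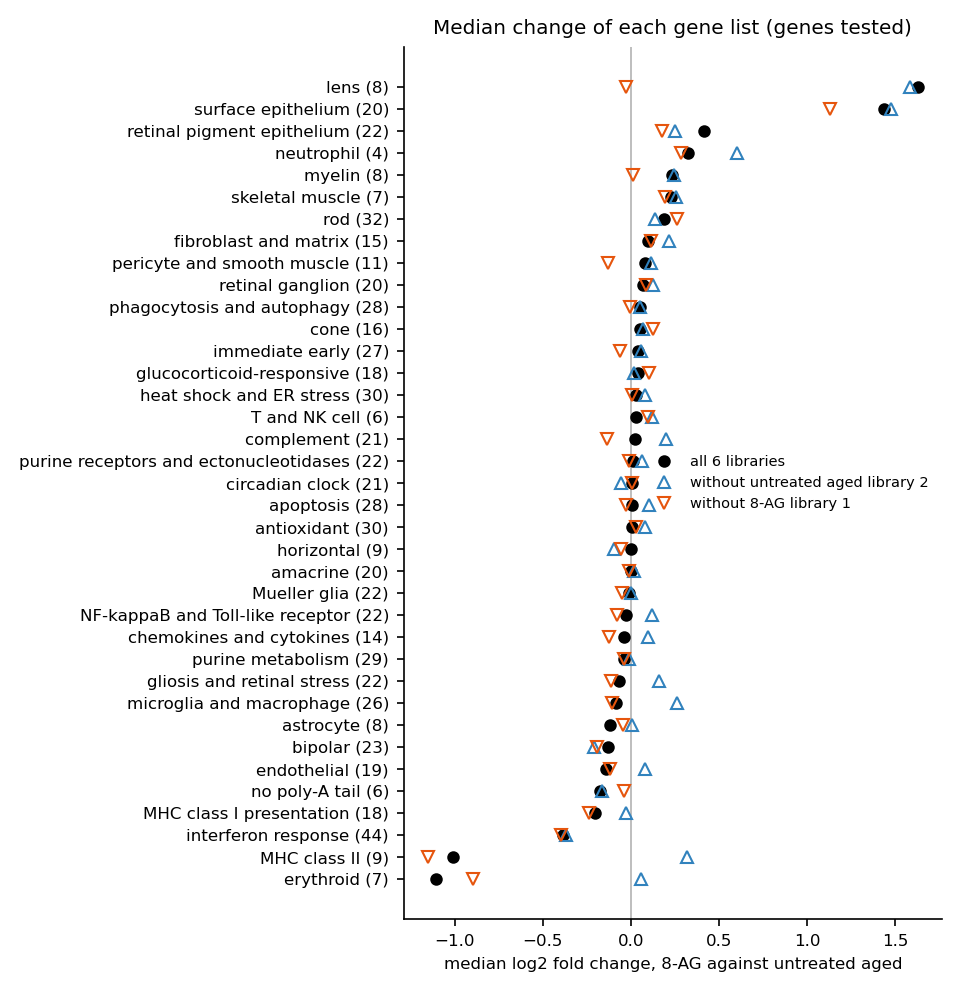
Median log2 fold change with 8-AG (horizontal axis) of each list with at least 4 genes tested (vertical axis, number tested in parentheses), with all 6 libraries (black), without untreated library 2 (blue) and without 8-AG library 1 (orange). Surface epithelium stays above 1 and interferon response near -0.38 in all 3 fits, the lens median falls to -0.03 without 8-AG library 1, and the MHC class II and erythroid medians are positive without untreated library 2 and negative in the other 2 fits. The fit without untreated library 3 is not drawn, and in it the interferon response median was -0.18.

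Few members of the remaining lists passed the test. Endothelial genes had a median of -0.14 with all libraries and of 0.08 without untreated library 2. Pericyte and smooth muscle genes were at 0.08 with all libraries, at -0.13 without 8-AG library 1 and at -0.11 without untreated library 3. Neither list held a DEG with all libraries. Fibroblast and matrix genes were higher in 13 of 15, with a median of 0.10, in 8 of 15 without 8-AG library 1, and in 7 of 15 with a median of -0.04 without untreated library 3. The 2 DEGs with all libraries, both higher (0.526% of all genes), were Col1a1 and Col6a2. Col1a1, a chain of type I collagen, was at 2.595, 1.25 and 0.819 CPM with 8-AG and 0.561, 0.391 and 0.352 CPM without (log2 fold change 1.82, standard error 0.50, unadjusted P = 0.0048). Col6a2, of type VI collagen, was at 20.2, 9.08 and 12.8 CPM with 8-AG and 10.02, 8.79 and 7.96 CPM without, a call lost without 8-AG library 1 (log2 fold change 0.30, unadjusted P = 0.13 without it). MHC class I genes were lower in 16 of 18, at -0.20, and at -0.03 without untreated library 2. RT1-S3, a non-classical class I gene, was lower without overlap, at 24.7, 25.4 and 23.6 CPM with 8-AG and 30.9, 33.6 and 42.2 CPM without (log2 fold change -0.53, standard error 0.12, unadjusted P = 0.0016). Phagocytosis and autophagy genes were higher in 20 of 28 with a median of 0.05, in 26 of 28 without untreated library 2 and in 14 of 28 without 8-AG library 1. Optn, the autophagy receptor optineurin, was at 450.2, 497 and 533 CPM with 8-AG and 394, 322 and 413 CPM without (log2 fold change 0.39, standard error 0.10, unadjusted P = 0.0039). Transcripts without a poly-A tail, which bear on the labels for total RNA, had a median of -0.18 over 6 genes tested, and their sum was 107, 94.5 and 112 CPM with 8-AG and 95.4, 107 and 115 CPM without, with overlapping groups.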

How the data were processed

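Neural retina of Fischer 344 rats was sequenced as bulk RNA-seq. Deposited retina values are expected counts per Ensembl gene, estimated by the authors and not normalized; the submitters' processing notes name Bowtie2 2.1.0, RSEM 1.2.15, edgeR and the Rnor_6.0 build. The authors' TMM-normalized signal per gene symbol was used only to pair identifiers with symbols, as were the symbols in the RPE/choroid tables. Of 32285 identifiers, 16590 were named by those tables and 1322 by matching values. The RPE/choroid raw counts per gene, deposited by the authors, were used for the comparison between tissues. Columns of the authors' own fold changes and p-values were not used.

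Expected counts were rounded and tested in edgeR 4.0.16 (R 4.3.3) with filterByExpr, TMM, robust glmQLFit and glmQLFTest on the 6 libraries. A standard error is the log2 fold change divided by the square root of the F statistic. P-values were adjusted by Benjamini-Hochberg over all genes tested. Depth was 12283458 to 15220202 counts per library, and genes with few counts have wide errors. The fit was tested on simulated data first. Pairs of libraries of a group differed beyond counting noise, with chi-square values of 5.77 to 24.56 per degree of freedom. An exact permutation test of 3 against 3 cannot give a p below 0.1 and was not used. Promoters came from RefSeq (GRCr8).

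The genes and 40 gene lists were chosen with earlier results of these data known. Genes named by rule were those past the adjusted threshold, the 8 largest increases and decreases among DEGs without overlap that carry a symbol and reach a mean log2 CPM of 1, DEGs and up to 4 high members of a list, and the 8 genes farthest apart at each end in untreated library 2. Other list members, the genes that set 8-AG library 1 apart, and those named as such were chosen after their values were seen. Some list members are counted but not reported here by name.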

Additional observations from a re-analysis of the deposited data

How the results depend on the processing

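The DEG counts were 77 higher and 63 lower. Leaving out 1 library at a time gave 72 to 143 higher DEGs, 70 to 143 lower DEGs, 0 to 3 genes at an adjusted p under 0.05 and 376 to 990 at an unadjusted P under 0.05; 143 higher came without 8-AG library 2 and 143 lower without untreated library 2. Leaving out untreated library 2 and 8-AG library 1 together, chosen after seeing the data, gave 179 lower DEGs, 55 genes at an adjusted p and 1489 at an unadjusted P. No filter on low counts gave 182 higher, 136 lower and 10 at an adjusted p, and at least 10 counts in every library gave 46 higher and 0 at an adjusted p. DESeq2 1.42.0 gave 123 higher and 18 at an adjusted p. Without robust shrinkage 0 genes were at an adjusted p and 566 at an unadjusted P. The causes were not tested. Size factors by RLE, unrounded counts and all 3 retina groups in 1 fit kept each of these counts within 1.5 times.

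A fit with the replicate number as a block gave 89 higher and 69 lower DEGs, 0 at an adjusted p and 689 at an unadjusted P. Each gene's deviation from its group mean was also compared between groups. In these deviations same-numbered libraries correlated at 0.085, 0.089 and 0.103, each the highest for its number. The deviations of a group are tied to each other and the values are small, so they cannot settle whether libraries were paired. The labels do not say.

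Of 1563 log2 fold changes of named genes under an alternative, 1339 kept their direction and their side of the unadjusted threshold, 135 lost it, 57 gained it and 32 reversed. The groups hold 3 libraries each, which limits the precision of every value.

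With 1 library left out, these log2 fold changes had values of both signs: Alox15 (-2.46 to 0.762), Cd74 (-1.73 to 0.317), RT1-Da (-1.6 to 0.773), Krt19 (-0.013 to 0.299), Pde6b (-0.007 to 0.213), Cmpk2 (-0.015 to 0.13), C3 (-0.475 to 0.152), Gfap (-0.413 to 0.163), Gda (-0.111 to 0.57), Pnp (-0.081 to 0.055), Sag (-0.132 to 0.099), Grifin (-1.07 to 3.93), Ifitm3 (-0.093 to 0.186) and Krt18 (-0.055 to 0.493). With untreated library 2 and 8-AG library 1 both left out, the sign turned for Alox15 (0.776), Cd74 (0.335), Rgr (-0.029), RT1-Da (0.655), Krt19 (-0.019), Ttr (-0.239), Rpe65 (-0.259), C3 (0.17), Gfap (0.08), Pnp (0.07), Sag (0.132), Grifin (-0.964) and Krt18 (-0.081).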

Other observations

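With untreated library 2 and 8-AG library 1 both left out, a choice made after seeing the data that leaves 2 libraries a group, 55 genes were at an adjusted p under 0.05 in edgeR (0.375% of 14679 tested). With all 6 libraries 25 of them had an unadjusted P under 0.05 and 18 were DEGs. The genes named here were chosen after their values were seen. Mt-nd4, a mitochondrially encoded subunit of respiratory complex I, was at 5804, 7827 and 8260 against 5024, 5563 and 5113 CPM (log2 fold change 0.48 with all 6 libraries and 0.67 without both). Mt-nd2, another such subunit, was at 4486, 6096 and 7568 against 4524, 5122 and 4533 CPM (log2 fold change 0.36 with all 6 libraries and 0.60 without both), where 8-AG library 1 lay below all untreated ones. Cav1, the coat protein of caveolae, was at 162, 203 and 199 against 144, 162 and 159.96 CPM (log2 fold change 0.27 with all 6 libraries and 0.40 without both). B3galt2, a galactosyltransferase, was at 136, 166 and 157 against 122, 115 and 123 CPM (log2 fold change 0.35 with all 6 libraries and 0.40 without both). The groups did not overlap in Mt-nd4 and B3galt2, and they overlapped in Mt-nd2 and Cav1. Usp2, a deubiquitinase with a daily rhythm, was at 79.9, 108 and 102 against 79.5, 57.5 and 71.9 CPM (log2 fold change 0.48 with all 6 libraries and 0.48 without both). Col27a1, a fibrillar collagen, was lower with 8-AG, at 51.9, 82.6 and 83.5 against 117, 93.99 and 109 CPM (log2 fold change -0.55 with all 6 libraries and -0.44 without both). Usp2 and Col27a1 were also without overlap between the groups.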
